A study of Mus musculus with 10 samples.

Results

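Long noncoding RNAs were examined in RNA of the retinal pigment epithelium (RPE), the pigmented monolayer that supports the photoreceptors, from 5 wild-type CD1 mice at P40. The genes described here are those that GENCODE M21 annotates as lincRNA (long intergenic noncoding RNA) or antisense, with a mean of at least 3 CPM over the 10 libraries, where CPM is a count scaled by the total of its library to a common size. They were chosen by this mean and number 194 of the 47729 genes in the table, 107 lincRNA and 87 antisense. The rule used the mean over both groups, so a gene that is high in 1 group and low in the other could enter through the high group alone.

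In each mouse the control eye received AAV-Best1-GFP and the Nrf2 eye received AAV-Best1-Nrf2 together with AAV-Best1-GFP, so all eyes carried GFP and the Nrf2 eyes carried an additional vector. The Nrf2 vector held the human cDNA in an AAV8 capsid, the GFP vector had a 7m8 capsid, and the human Best1 promoter in both vectors is active in the RPE. The transcription factor Nrf2 activates antioxidant genes. RNA was taken from the eyecup after the retina had been removed, polyA RNA was amplified, and the libraries held 12298404 to 27310638 counts.

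Long noncoding RNAs are transcribed, spliced and polyadenylated much as messenger RNAs are but do not encode a long protein. Some act in the nucleus on chromatin or on nuclear bodies, some are the hosts from which microRNAs or small nucleolar RNAs are cut, and for most no function is known. An antisense gene lies on the strand opposite to a coding gene, within it or across it, and a divergent gene starts next to a coding gene's promoter and runs the other way.

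The RPE markers Rpe65, Best1, Rlbp1 and 7 others were counted in every library, and their sum was 20786 to 41914 CPM in the control eyes and 10578 to 28160 CPM in the Nrf2 eyes, with 5 of the 10 genes lower in edgeR. Fewer RPE cells and less RNA per cell cannot be told apart in these bulk samples. Rod markers summed to 19263 and 7355 CPM in the control and the Nrf2 eye of mouse 2, to 2816 CPM in the control eye of mouse 4, and to 39.6 to 413 CPM elsewhere, with 0 of 9 tested genes called in edgeR. Microglia and macrophage markers summed to 164 to 292 CPM in the control eyes and 390 to 2015 CPM in the Nrf2 eyes, with 11 of 12 genes higher. None of these lists had a gene at 0 in every library. The amplification kit does not mark the strand and the strand setting of the counting was not given, so reads of genes that overlap on opposite strands cannot be told apart. Where a noncoding gene lies in an intron of a coding gene, the same holds for its reads and those of unspliced coding RNA.

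The noncoding genes took 0.448 to 0.633% of the counts of a library, and Malat1 alone took 34.6 to 44.7% of that share. Their means ran from 3.04 CPM for Snhg6 to 2142 CPM for Malat1, with a median of 5.71 CPM. Just inside the limit lay Snhg6 at 3.04 CPM, Gm43254 at 3.05 CPM and 2410018L13Rik at 3.07 CPM. Just outside lay Tmem147os at 2.99 CPM, Gm17484 at 2.99 CPM and Gm11266 at 2.98 CPM. RefSeq, matched by symbol, listed 114 of the 194 as lncRNA and had no entry for 74. It listed 3 as protein-coding (Tmem250-ps, 1810058I24Rik and Gm20939), 2 as transcribed pseudogenes (4632415L05Rik and BC023719) and 1 as a pseudogene (Gm10076).

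Of the 194 genes, 193 had enough counts for the edgeR test, the exception being Mir124a-1hg, a host of miR-124. Between the eyes of a mouse, 4 of the 193 were higher in the Nrf2 eye and 9 were lower at an adjusted p under 0.05, which is 6.74% of those tested. The share over all genes was 6.33%, made of 3.6% higher and 2.73% lower. The share called among the noncoding genes was thus near that of all genes in this fit, but with the rod list as a covariate it was 1.04% against 2.52% of all genes, without mouse 2 1.57% against 3.58%, and without mouse 5 1.55% against 4.15%. The 4 higher genes (Gm20658, Pard3bos3, AW112010 and Gm17586) were among 14 genes that had a control mean under 3 CPM and entered through the Nrf2 eyes, which fixes the direction of their difference. Likewise 6 of the 9 lower genes were among 21 that entered through the control eyes. Of the 159 genes at 3 CPM or more in both groups, 3 were called, and all 3 (Gm14133, Gm13111 and 2610020C07Rik) were lower. The share of all genes under this limit was not taken, so 3 of 159 has no background beside it. With DESeq2 26 of the 194 genes were called (13.4%, against 8.92% of all genes), and in edgeR without the mouse as a block 7 of 193 (3.63%, against 4.61% of all genes).

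Across the 193 tested genes the median log2 fold change (log2FC, Nrf2 over GFP control) was -0.17, with quartiles of -0.47 and 0.10, and over all 16362 tested genes it was -0.01. Without mouse 4 the median was -0.085, and with the rod list as a covariate -0.067. The fold change was negative for 126 and positive for 67. The level was lower in the Nrf2 eye of 5 of 5 mice for 41 genes, against 10.9% of all genes, and higher in 5 of 5 for 13, against 9.23% of all genes. The 2 groups did not overlap for 9 genes, 3 of them higher and 6 lower, and did not overlap for 6.28% of all genes. Among the 180 tested genes that did not pass, 131 had a fold change within 0.5 on the log2 scale and 9 had one of 1 or more, from -1.54 for A930006I01Rik to 2.17 for A930003O13Rik.

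**Figure D1:**
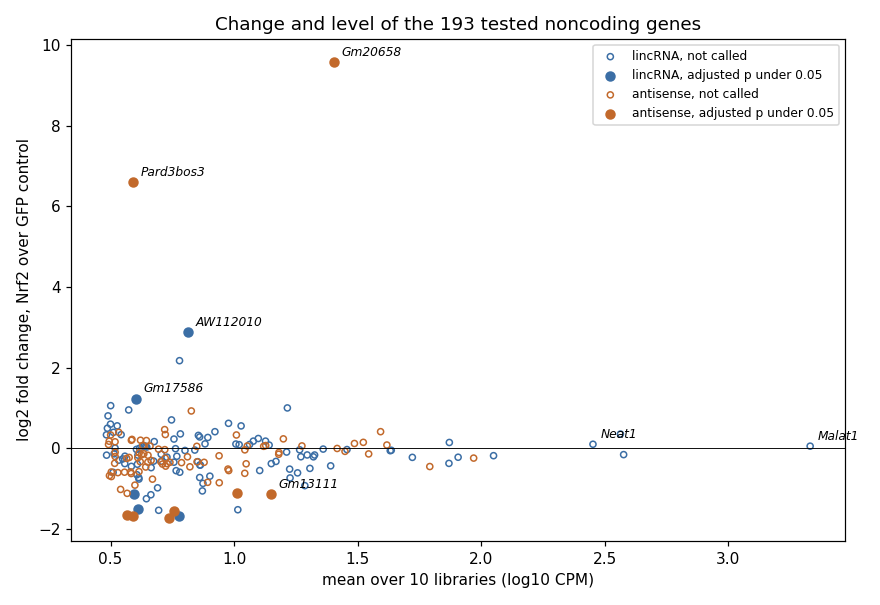
Fitted log2FC, Nrf2 over GFP control (vertical axis), against the mean level over 10 libraries as log10 CPM (horizontal axis), for the 193 tested noncoding genes, with 1 point per gene and filled points for the 13 with an adjusted p under 0.05. Gm20658 at 9.60 and Pard3bos3 at 6.60 stand far above the others, and Malat1 at the right edge lies at 0.05.

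The antisense gene Gm20658 had the highest fold change of all the noncoding genes. It has the identifier ENSMUSG00000093765 and lies on the minus strand at chr12:116102769-116138648 (mm10), inside the body of Vipr2, the gene of a receptor for vasoactive intestinal peptide, with no exon in common. The control eyes of mice 1 to 5 had 0.0510, 0.0616, 0, 0.179 and 0 CPM. Their Nrf2 eyes had 36.2, 88.1, 65.1, 35.3 and 28.7 CPM. Every Nrf2 eye was thus far above every control eye, and each control library held at most 3 counts. The means were 0.0584 ± 0.0733 and 50.7 ± 25.2 CPM (SD, n = 5), and the fitted log2FC was 9.60 (adjusted p 0.000103, higher in 5 of 5 mice). The mean of the within-mouse log2 differences was 8.27 (SE 0.44). Summed over libraries there were 5 counts in the control eyes and 5599 in the Nrf2 eyes, a ratio per total count of 1035 with a 95% interval of 443 to 3189 for counting error only. With so few control counts the fitted value and the mean difference both depend on the prior count. Vipr2 itself was at 58.9 ± 21.9 CPM in the control eyes and 54.0 ± 10.5 CPM in the Nrf2 eyes, with a log2FC of -0.09 (SE 0.17, adjusted p 0.830).

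Pard3bos3, antisense within the body of Pard3b, a gene of a cell polarity protein, had the next highest fold change. It has the identifier ENSMUSG00000085400 and lies on the minus strand at chr1:62456725-62499261, also with no exon shared with its coding gene. Its level was 0.102, 0, 0.0698, 0.239 and 0 CPM in the control eyes of mice 1 to 5, and 7.01, 8.50, 8.27, 9.59 and 5.28 CPM in the Nrf2 eyes. The groups were again wide apart, with a fitted log2FC of 6.60 (adjusted p 0.00144, higher in 5 of 5 mice) and a mean within-mouse log2 difference of 5.52 (SE 0.26). The summed counts were 7 and 788, a ratio per total count of 104 (95% interval 50.3 to 260, counting error only). Pard3b was at 18.3 ± 3.87 and 18.6 ± 5.61 CPM with a log2FC of -0.02 (SE 0.27, adjusted p 0.980). Another noncoding gene in the body of Pard3b, Gm29084, had a log2FC of -0.01 (SE 0.12, adjusted p 0.988).

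The starts of the longest transcripts of these 2 genes are printed because both RNAs were nearly without counts in the control eyes and because no window of Pard3bos3 was matched in RefSeq. They are the first 200 bases of Gm20658-202, of 1950 bases, and of Pard3bos3-201, of 862 bases, from GENCODE M21. The capitals mark matches to TGACNNNGC, the core of the antioxidant response element that NRF2 binds together with a small Maf protein, searched on both strands.
Gm20658-202: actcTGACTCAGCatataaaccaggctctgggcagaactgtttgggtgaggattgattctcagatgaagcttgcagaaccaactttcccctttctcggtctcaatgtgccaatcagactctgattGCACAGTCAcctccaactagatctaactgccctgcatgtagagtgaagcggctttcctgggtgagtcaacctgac
Pard3bos3-201: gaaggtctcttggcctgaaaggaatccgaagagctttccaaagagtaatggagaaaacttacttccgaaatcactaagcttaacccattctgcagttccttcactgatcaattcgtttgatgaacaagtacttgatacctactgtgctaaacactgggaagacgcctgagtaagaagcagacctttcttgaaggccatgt
The longest of the 2 transcripts of Gm20658 held a match at base 5 and another, on the other strand, at base 126, while the first 200 bases of its other transcript and of the transcript of Pard3bos3 held 0. The letters occurred in the first 200 bases of the longest transcript of 7.73% of the noncoding genes and of 8.91% of all genes. A match is a description of the letters and not of a bound site.

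AW112010 and Gm17586 were the other genes that rose. AW112010 (ENSMUSG00000075010, lincRNA, chr19:11047612-11055808, minus strand) is known as an RNA that immune stimuli raise in macrophages. Its level in the control eyes of mice 1 to 5 was 5.00, 0.616, 0.768, 1.37 and 0.330 CPM, and in the Nrf2 eyes 19.2, 7.12, 1.43, 24.6 and 4.92 CPM. The groups overlapped, since the Nrf2 eyes of mice 3 and 5 lay below the control eye of mouse 1, but the Nrf2 eye was the higher in 5 of 5 mice, with a log2FC of 2.88 (SE 0.57, adjusted p 0.0171). The summed microglia and macrophage markers were also higher in the Nrf2 eye of every mouse. They were highest in the Nrf2 eye of mouse 5 at 2015 CPM, while AW112010 was highest in that of mouse 4. Their part in the result was not tested. The call was lost without mouse 2, without mouse 4 and without mouse 5, with no block for the mouse (adjusted p 0.118) and with the rod list as a covariate (adjusted p 0.0951). The nearest coding gene, Ms4a8a, was too low to test.

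Gm17586 (ENSMUSG00000097062, lincRNA, chr11:120633768-120635125, plus strand) starts 168 bases from Mafg and runs the other way. Mafg encodes a small Maf protein with which NRF2 pairs to bind DNA, and Gm17586 was the only one of the 194 genes within 5 kb of a gene of a list of 53 NRF2 target genes. Its level was 2.24, 2.40, 2.09, 3.94 and 1.43 CPM in the control eyes of mice 1 to 5 and 4.87, 5.86, 6.73, 6.26 and 4.07 CPM in the Nrf2 eyes. The lowest Nrf2 eye was just above the highest control eye, and the log2FC was 1.23 (SE 0.17, adjusted p 0.0268, higher in 5 of 5 mice). The call held without mouse 4 and was lost without any other mouse and with the rod list as a covariate (log2FC 1.44, adjusted p 0.0563). Mafg rose with it, from 37.6 ± 9.79 to 63.6 ± 7.95 CPM (SD, n = 5), with a log2FC of 0.77 (SE 0.13, adjusted p 0.0124).

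The start region of Gm17586 on the side of Mafg is printed because both genes of this divergent pair rose. It is the plus strand of chr11:120633601-120633799 of RefSeq's GRCm38.p6 window, with the bases of the Mafg exon left out and the match to TGACNNNGC in capitals.
Gm17586: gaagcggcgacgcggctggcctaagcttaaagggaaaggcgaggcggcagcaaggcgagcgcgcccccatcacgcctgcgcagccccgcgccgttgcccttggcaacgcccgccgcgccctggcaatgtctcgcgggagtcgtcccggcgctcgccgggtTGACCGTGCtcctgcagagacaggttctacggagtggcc
The match TGACCGTGC begins 12 bases after the RefSeq start of Gm17586, inside that gene as RefSeq places it. RefSeq windows of 300 bases (250 before and 50 after a start) were matched for 96 of the 194 genes, and 20 of the 96, 20.8%, held a match, against 14% of all genes with a window and 16 of 45, 35.6%, of the NRF2 target list. Of the genes that were called, 1 of 3 higher and 4 of 8 lower genes with a window held one. Some windows lie far from the GENCODE start of their gene, with and without a match. Among those with one, the windows of 4930512H18Rik and Gm16364 start 61799 and 55620 bases away, and among those without, the windows of Gm20658 and AW112010 start 26935 and 5242 bases away.

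**Figure D2:**
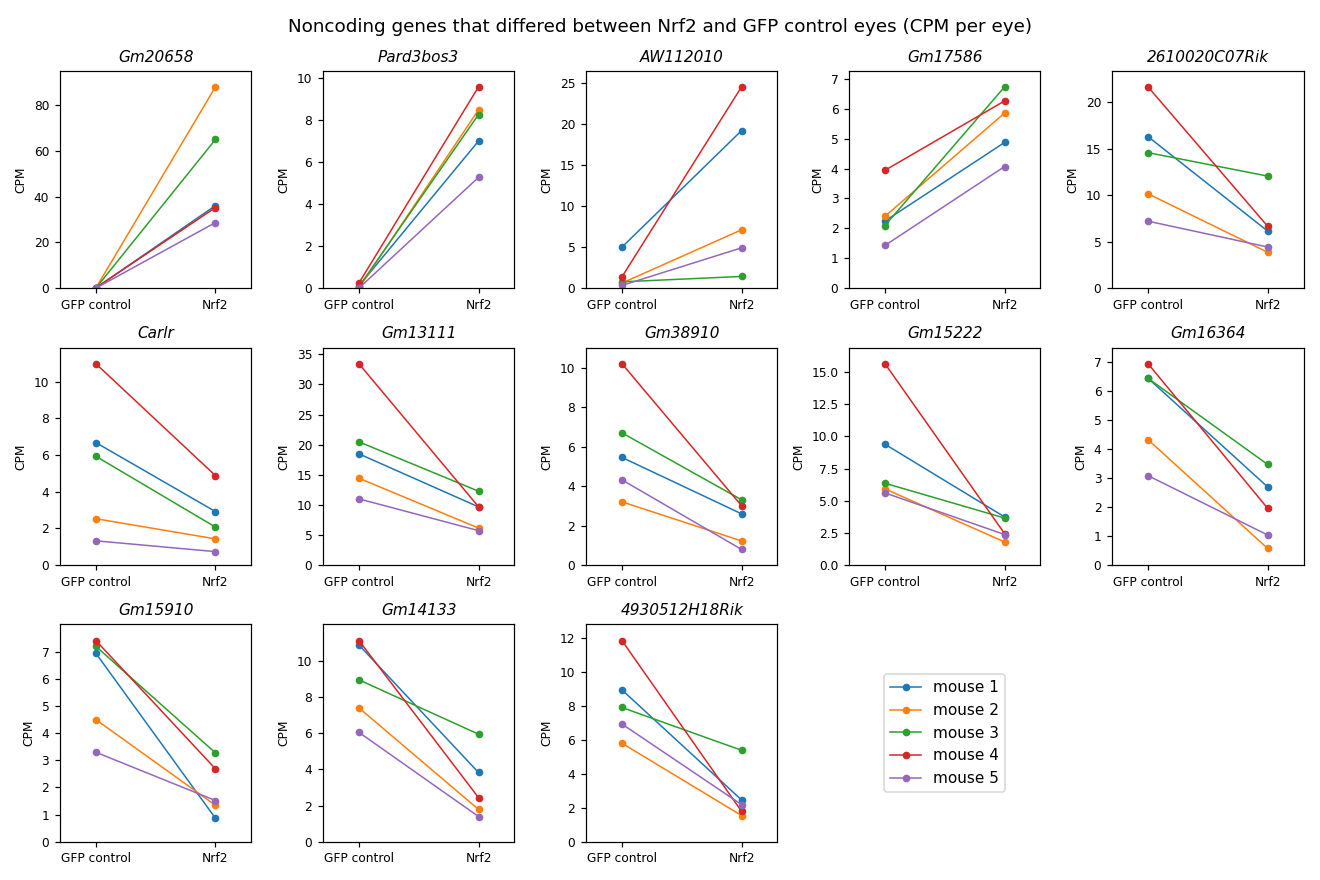
CPM of the 13 noncoding genes with an adjusted p under 0.05 in the GFP control eye (left) and the Nrf2 eye (right), with 1 line per mouse, vertical axes from 0 and a scale of its own in each panel. Gm20658 and Pard3bos3 start at 0.239 CPM or less in every control eye, and in the 9 panels of lower genes the control eye of mouse 4 is the highest point.

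Of the 9 genes that fell, 4930512H18Rik had the lowest fold change. It lies at chr8:61849006-61922834 on the plus strand, on the strand opposite to Palld, a gene of an actin-binding protein, whose body it overlaps in part with no shared exon. Of its 1611 exon bases, 325 are shared with another annotated gene, so its counts may not be its own alone. The control eyes of mice 1 to 5 had 8.93, 5.79, 7.89, 11.8 and 6.92 CPM, and their Nrf2 eyes had 2.46, 1.55, 5.38, 1.79 and 2.19 CPM. The groups did not overlap, and the log2FC was -1.74 (SE 0.35, adjusted p 0.0238). That of Palld was -0.31 (SE 0.07, adjusted p 0.122).

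The lincRNA Gm14133 (chr2:149743927-149798743, minus strand), whose nearest coding gene Syndig1 was too low to test, was at 10.9, 7.39, 8.94, 11.1 and 6.04 CPM in the control eyes and at 3.83, 1.79, 5.94, 2.44 and 1.40 CPM in the Nrf2 eyes of mice 1 to 5. Gm14133 also shares exon bases with another annotated gene, so its counts may not be its own alone. Gm15910 (chr10:120857629-120863326, plus strand), antisense within Msrb3, a gene of a methionine sulfoxide reductase, was at 6.94, 4.50, 7.19, 7.41 and 3.30 CPM in the control eyes and at 0.865, 1.34, 3.27, 2.68 and 1.52 CPM in the Nrf2 eyes. Neither gene's groups overlapped, and their log2FC values were both -1.68 (SE 0.31 in each, adjusted p 0.0197 and 0.0235). For Msrb3 the log2FC was -0.12 (SE 0.30, adjusted p 0.870).

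Gm16364 and Gm15222 lie within coding genes that were themselves called, in opposite directions. Gm16364 (chr10:39556071-39558062, minus strand), within Fyn, a gene of a Src family kinase, fell from 6.43, 4.31, 6.42, 6.93 and 3.08 CPM in the control eyes of mice 1 to 5 to 2.69, 0.569, 3.46, 1.95 and 1.03 CPM in the Nrf2 eyes (log2FC -1.66, SE 0.32, adjusted p 0.0306), and the Nrf2 eye of mouse 3 overlapped the control eye of mouse 5. Fyn rose over the same pairs from 9.14 ± 4.67 to 29.6 ± 10.1 CPM (log2FC 1.72, SE 0.32, adjusted p 0.0113). This was the only pair with both genes called in which the directions differed. Gm15222 (chr14:46387519-46389282, plus strand), within Bmp4, the gene of a secreted growth factor, fell from 9.39, 5.91, 6.35, 15.6 and 5.60 CPM to 3.73, 1.79, 3.65, 2.44 and 2.37 CPM (log2FC -1.55, SE 0.32, adjusted p 0.0280), with no overlap. Bmp4 fell too, from 198 ± 54.0 to 84.2 ± 21 CPM (log2FC -1.24, SE 0.15, adjusted p 0.00311). As Gm15222 lies within Bmp4, its reads cannot be told apart from those of unspliced Bmp4 RNA.

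Gm13111 (chr4:154637576-154644724, plus strand), which starts 703 bases from Prdm16, a gene of a chromatin regulator, and runs the other way, was the only lower gene to keep its call without mouse 4 or without mouse 5. Its level was 18.5, 14.4, 20.5, 33.4 and 11 CPM in the control eyes of mice 1 to 5 and 9.65, 6.14, 12.3, 9.68 and 5.71 CPM in the Nrf2 eyes, so the groups overlapped only through the Nrf2 eye of mouse 3 and the control eye of mouse 5 (log2FC -1.14, SE 0.20, adjusted p 0.0151). Prdm16 fell from 60.3 ± 15.7 to 36.4 ± 9.37 CPM (log2FC -0.74, SE 0.16, adjusted p 0.0265).

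The remaining 3 genes that fell had overlapping groups and were lower in the Nrf2 eye of 5 of 5 mice. Gm38910, a lincRNA (chr6:134605234-134607681, minus strand) near Mansc1 and Lrp6, was at 5.46, 3.20, 6.70, 10.2 and 4.32 CPM in the control eyes of mice 1 to 5 and at 2.60, 1.22, 3.31, 3.01 and 0.789 CPM in the Nrf2 eyes (log2FC -1.52, SE 0.27, adjusted p 0.0254). Carlr (chr2:18799245-18801818, minus strand), named as a cardiac and apoptosis-related noncoding RNA, was at 6.68, 2.53, 5.94, 11 and 1.32 CPM and at 2.91, 1.42, 2.07, 4.88 and 0.728 CPM in the same eyes, so it spread widely between mice, with within-mouse log2 differences of -1.46 to -0.80 (log2FC -1.14, SE 0.12, adjusted p 0.0254). 2610020C07Rik (chr16:11203366-11246201, plus strand), the only called gene whose exons overlap those of its coding gene, Gspt1, of a translation termination factor, was at 16.3, 10.2, 14.6, 21.7 and 7.21 CPM and at 6.15, 3.86, 12.1, 6.67 and 4.43 CPM (log2FC -1.11, SE 0.26, adjusted p 0.0413). The log2FC of Gspt1 was -0.10 (SE 0.03, adjusted p 0.573). Mansc1, the nearest coding gene of Gm38910, had one of -0.75 (SE 0.13, adjusted p 0.0503), and Lrp6 one of -0.40 (SE 0.06, adjusted p 0.0411). Pip4k2a, the nearest coding gene of Carlr, had one of 0.56 (SE 0.20, adjusted p 0.159). The summed RPE markers were also lower in the Nrf2 eye of 5 of 5 mice, and their part in these falls was not tested. For all 9 lower genes the control eye of mouse 4, the highest in RPE markers, was the highest of the 10 eyes. Under a fit without that mouse 1 of the 9 kept its call, Gm13111, while the log2FC values of the 9 lay between -1.69 (Gm15910) and -0.91 (2610020C07Rik). Without mouse 5 the number was again 1, Gm13111. Without mouse 2, 0 of the 9 kept their call, and without mouse 1 and without mouse 3 the numbers were 4 and 5. With the rod list as a covariate 0 of the 9 passed, at adjusted p of 0.0531 to 0.211, while their log2FC values remained negative at -1.78 for Gm15910 to -0.88 for 2610020C07Rik. Fits with the covariate or with a mouse left out have fewer degrees of freedom for the spread, so a call can be lost at a similar fold change. Gm20658 and Pard3bos3 passed in 11 of the 11 alternative fits.

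The noncoding genes were next set beside the coding gene they overlap or lie next to. For 172 of them the coding gene was tested too, and in 107 of these pairs both fold changes had the same sign. In 17 pairs the coding gene was called (9.88%, against 6.84% of all protein-coding genes, with no test of the difference), in 4 both genes were called, and in 3 of the 4 (Gm17586 with Mafg, Gm15222 with Bmp4 and Gm13111 with Prdm16) they moved the same way. Around the 13 called genes 54 coding genes lay within 100 kb, of which 39 were tested and 5 (Mafg, Bmp4, Fyn, Prdm16 and Lrp6, a Wnt co-receptor) were called (12.8%).

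The pairs are described by layout, with no test between layouts. Where exons overlap on opposite strands there were 67 pairs, and Pearson's r between the fold changes was 0.66 and Spearman's rho 0.48, with 47 pairs of the same sign. Without A930003O13Rik, the pair with the highest values, r was 0.44 and rho 0.46. Such pairs share the stretch of genome that the reads were assigned to, and without strand this value cannot be read as the 2 RNAs changing together. For the 23 pairs in which the gene bodies overlap, in whole or in part, on opposite strands but share no exon, r was -0.14 and rho 0.13. The other 6 pairs overlap on the same strand. For the 21 divergent pairs r was 0.57 and rho 0.26, and for the 55 pairs of nearest genes with no overlap r was 0.04 and rho 0.08. These values are across genes, which are not independent replicates, and they describe the same 10 libraries.

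The calls are given by layout, with no test of a difference between layouts and beside the 6.33% of all genes. In the group with exon overlap on opposite strands 1 of 68 tested genes was called (1.47%), and in the group in which only the gene bodies overlap on opposite strands 6 of 25 (24%). All 6 (Gm20658, Pard3bos3, 4930512H18Rik, Gm15222, Gm15910 and Gm16364) reached a mean of 3 CPM in 1 group only, which fixes the direction of their difference, and nothing is read from their share. Of the divergent genes 2 of 21 were called, and of the genes with no overlap 4 of 72. Of the 87 genes that share no exon base with any other gene, 10 were called (11.5%). These were 9 of the 23 that reached a mean of 3 CPM in 1 group only and 1 of the 64 that reached it in both (1.56%), and nothing is read from the 11.5% either.

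**Figure D3:**
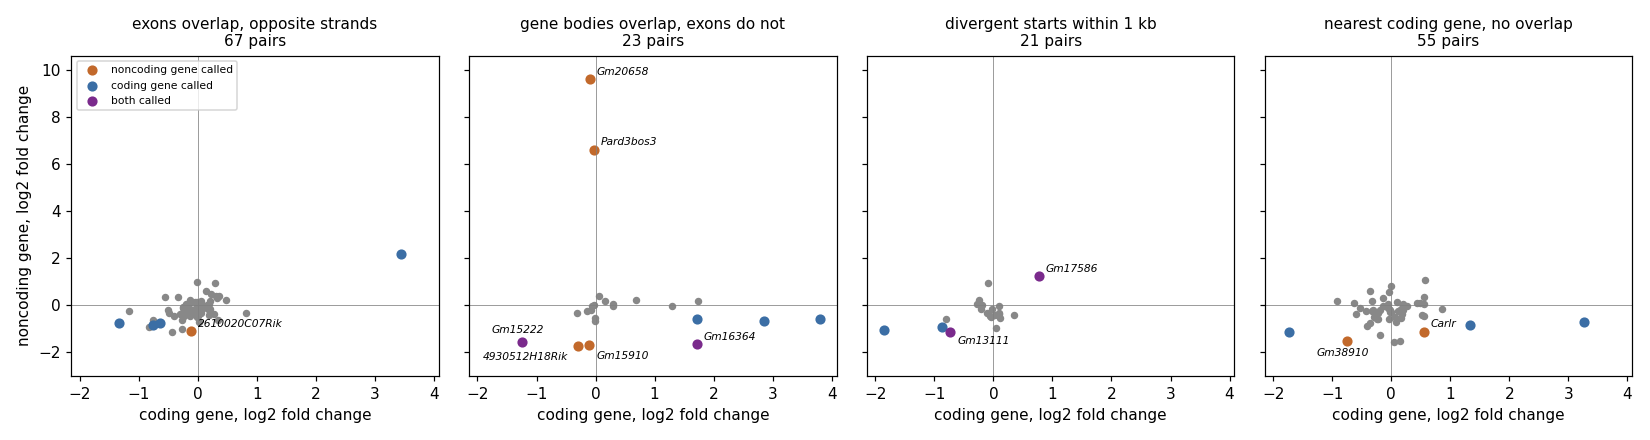
Log2FC (Nrf2 over GFP control) of each noncoding gene (vertical axis) against that of its coding gene (horizontal axis), 1 point per pair, in panels by layout with 67, 23, 21 and 55 pairs. Orange marks a called noncoding gene, blue a called coding gene and purple both. Gm20658 and Pard3bos3 lie near 0 on the horizontal axis, and Gm16364 lies to the lower right of 0.

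In other pairs the coding gene was called and the noncoding gene was not, and those given here apart from Otx2os1 were picked after their values were seen. Otx2os1 overlaps Otx2, the gene of a transcription factor of RPE and photoreceptor identity. It was at 19.7, 17.4, 20.3, 36.7 and 12.2 CPM in the control eyes of mice 1 to 5 and at 9.97, 13, 19.7, 9.68 and 9.77 CPM in the Nrf2 eyes (log2FC -0.74, SE 0.34, adjusted p 0.201, lower in 5 of 5 mice). Otx2 fell from 347 ± 82.5 to 225 ± 49.6 CPM (log2FC -0.63, SE 0.13, adjusted p 0.0287). The control eye of mouse 4 was again the highest for both genes. Gm5468, divergent from Basp1, missed the threshold with a log2FC of -0.93 (SE 0.25, adjusted p 0.0501), and Basp1 fell with one of -0.86 (SE 0.22, adjusted p 0.0404). A930003O13Rik had one of 2.17 (SE 0.60, adjusted p 0.0535) and the overlapping Lhfpl3 rose with one of 3.45 (SE 0.74, adjusted p 0.0224). Both signs were negative for 1700018L02Rik (-0.85) with Ak3 (-0.76, SE 0.09, adjusted p 0.00827). The same was seen for F630040K05Rik (-1.06) with 1600014C23Rik (-1.86, SE 0.25, adjusted p 0.0141). Gm17135 with Rsph10b and Gm28875 with Syne3 were lower in the Nrf2 eye of every mouse, in both genes of each pair.

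In some pairs, fewer than those named with the same sign, the coding gene rose and the noncoding gene had a fold change of the opposite sign without passing the test. Panx2, of a membrane channel protein, rose with a log2FC of 3.80 (SE 0.46, adjusted p 0.0102), while 1810021B22Rik, which overlaps it in part on the opposite strand, had one of -0.58 (SE 0.32, adjusted p 0.392). Agrp, of a melanocortin receptor antagonist, rose with one of 2.86 (SE 0.22, adjusted p 0.00466), while Gm38250 had one of -0.68 (SE 0.18, adjusted p 0.198). The same held for Gm16365 at -0.60 beside Fyn at 1.72. For A930003A15Rik at -0.73 beside its nearest coding gene Klhl6 at 3.27, the sign turned without mouse 4 (0.021) and with the rod list as a covariate (0.64). AI847159 at -0.86 beside Slc20a1 at 1.34 was higher in the Nrf2 eye of 3 of 5 mice, with a log2 difference of -5.66 in mouse 4. For Nampt, of NAD synthesis, which rose with one of 1.48 (SE 0.17, adjusted p 0.00226), Gdap10 had the same sign at 0.70 (SE 0.39, adjusted p 0.359).

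The noncoding genes with the most counts did not pass the test in either direction. Malat1, a nuclear RNA found at splicing speckles, was at 1550, 2352, 1805, 2289 and 2500 CPM in the control eyes of mice 1 to 5 and at 2074, 2831, 2092, 1897 and 2025 CPM in the Nrf2 eyes. The groups overlapped over most of their range, and the log2FC was 0.05 (SE 0.18, adjusted p 0.932). Neat1, the RNA on which paraspeckles are built, was at 192, 256, 253, 260 and 391 CPM and at 403, 389, 244, 241 and 202 CPM, higher in the Nrf2 eye of 2 mice and lower in that of 3 (log2FC 0.10, SE 0.37, adjusted p 0.917). Per kilobase of exon, Malat1 was the most abundant at 307 CPM per kb, followed by Gm26825 at 186 and Gm26917 at 110 CPM per kb, while Neat1 ranked 16 at 13.6 CPM per kb.

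Gm26917 was higher in the Nrf2 eye of 5 of 5 mice, at 321 ± 61.8 and 411 ± 55.5 CPM, without passing (log2FC 0.35, SE 0.12, adjusted p 0.178). Tug1, a chromatin-associated RNA first described in the retina, was lower in 5 of 5, at 101 ± 11.2 and 85.6 ± 8.05 CPM, also without passing (log2FC -0.25, SE 0.04, adjusted p 0.139). For Gm26825, Gm7292, 1700020I14Rik and Gm26809 the log2FC values were -0.16, -0.19, -0.23 and 0.14, with adjusted p of 0.511, 0.342, 0.493 and 0.588.

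None of the 194 genes in the listed functional groups was called. Of the 17 snoRNA host genes in the table, 6 are typed as lincRNA or antisense and 3 of these were at 3 CPM or more, Snhg20 (log2FC -0.22), Snhg18 (0.23) and Snhg6 (0.33). The microRNA hosts had Mir124-2hg (-0.02) and the untested Mir124a-1hg, of 11 genes of these types. The imprinted genes had Kcnq1ot1 (0.14) and Meg3 (0.28), of 6. The group of nuclear and chromatin RNAs had 8 of 12, which include Malat1, Neat1, Tug1 and Gm26917. The eye and neural developmental group had Otx2os1, Vax2os and A930003A15Rik, of 12. In the X-inactivation centre group 4 genes are of these types, and 0 of them reached 3 CPM, while 2 of other types did (5530601H04Rik and Firre). Over listed genes of any type and level, 3 of 44 tested were called (6.82%), near the 6.33% of all genes. None of the 3 is among the 194, and all were looked up after the values were seen. Snhg11, annotated as protein-coding, had a log2FC of 0.78 (SE 0.08, adjusted p 0.0174). Six3os1, a processed transcript, had one of -0.63 (SE 0.12, adjusted p 0.0245). Pvt1, a lincRNA at a mean of 1.60 CPM, had one of 3.24 (SE 0.53, adjusted p 0.0216). All 3 calls were lost with the rod list as a covariate, that of Snhg11 also without mouse 2 and without mouse 5, that of Six3os1 without mouse 1, 2, 3 or 4, and that of Pvt1 without mouse 1, 3, 4 or 5. With no block for the mouse Snhg11 and Six3os1 lost their calls (adjusted p 0.788 and 0.184).

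Some noncoding genes were much higher in both eyes of mouse 2 than in the other mice. For 10 of the 193 tested genes the mean of the 2 eyes of mouse 2 was over 2 on the log2 scale above the median of the other mice, 5.18% against 2.85% of all genes. The range of the mouse means had a median of 0.87 on the log2 scale, against 0.63 over all genes. The 10 genes were A930006I01Rik, AI847159, A930003A15Rik, Rncr4, Vax2os, Uckl1os, Meg3, Mir124-2hg, A930003O13Rik and Gm15706. Rncr4 takes its name from the retina and Mir124-2hg is a host of the neuronal miR-124. In the paired edgeR test between the eyes none of the 10 passed. The nearest to it was A930003O13Rik (adjusted p 0.0535), which was also higher in the Nrf2 eye of 5 of 5 mice and which passed with DESeq2 (adjusted p 5.8e-05), with no filter on low counts and without mouse 2.

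A930003A15Rik was at 40.8 CPM in the control eye and 21.2 CPM in the Nrf2 eye of mouse 2, at 5.97 CPM in the control eye of mouse 4, and at 0.102 to 1.58 CPM in the other 7 eyes. Rncr4 was at 30.0 and 6.43 CPM in mouse 2, at 3.64 CPM in the control eye of mouse 4, and at 0.228 to 1.25 CPM in the rest. Vax2os, which overlaps in part, on the opposite strand, Vax2, the gene of a transcription factor of the ventral eye, was at 34.2 and 32.6 CPM in mouse 2 and at 17.3 CPM in the control eye of mouse 4, against 0.971 to 2.19 CPM in the rest. The eyes with the highest levels were thus the 3 eyes with the highest rod marker sums, and what part retina left on the eyecup has in these levels was not tested.

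**Figure D4:**
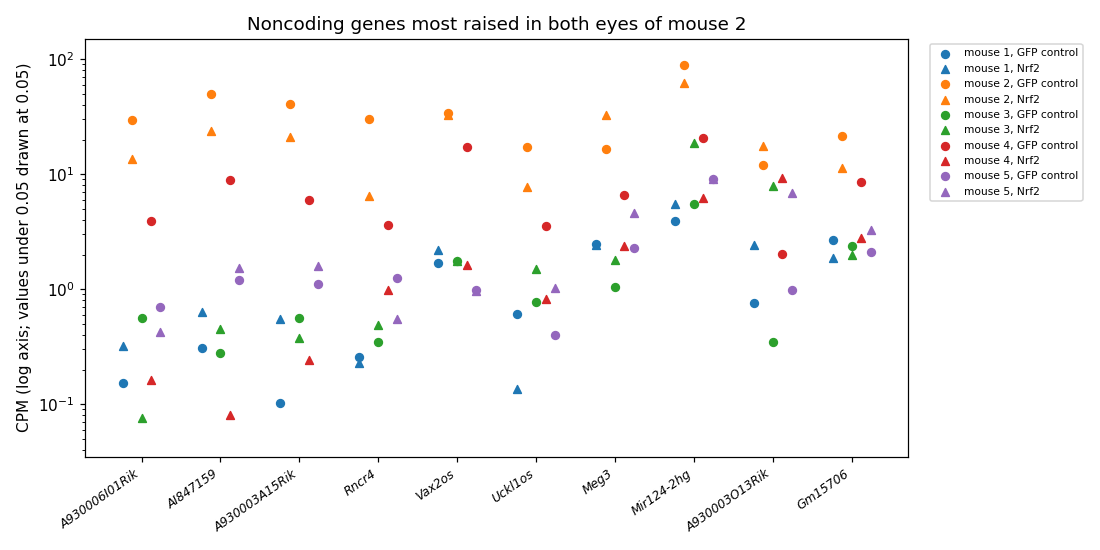
CPM on a log axis of the 10 noncoding genes most raised in mouse 2, with circles for GFP control eyes, triangles for Nrf2 eyes and 1 colour per mouse, and values under 0.05 drawn at 0.05. The orange points of mouse 2 lie above all others in each column, and the highest of them is Mir124-2hg at 88.7 CPM.

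Other genes, picked after their values were seen, varied between eyes in another way. A830036E02Rik, whose exons overlap those of Krt12, a keratin of the corneal epithelium, was at 21.5, 81.6, 52.2, 0.776 and 264 CPM in the control eyes of mice 1 to 5 and at 71.0, 54.3, 2.67, 14.9 and 56.0 CPM in the Nrf2 eyes. Krt12 was at 6397, 12781, 7485, 3.46 and 29095 CPM and at 18555, 6720, 363, 1638 and 7005 CPM in the same eyes, so that both genes were highest in the control eye of mouse 5 and lowest in that of mouse 4. Neither differed between the groups by more than the spread (log2FC -0.46, SE 1.46, adjusted p 0.905, and -0.41, SE 2.26, adjusted p 0.951). Gm27194 was at 0.123 and 0.285 CPM in the eyes of mouse 2 and at 4.42 to 6.34 CPM in the other 8 eyes.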

How the data were processed

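RNA from 10 RPE libraries, 1 Nrf2 and 1 GFP control eye from each of 5 mice, was analysed. Per the labels and the study's methods, the authors collected polyA RNA, amplified it with a low-input kit, aligned reads with STAR to mm10 with Ensembl release 91 transcripts and counted them with featureCounts, and in parallel estimated counts with Salmon (0.8.2 in the submitters' processing notes). The deposited file holds unnormalized counts, whole numbers, for each Ensembl gene. Which program made them and the strand setting were not given in the sources used here.

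Gene type, position, exons and transcripts came from GENCODE M21, which had 47310 of the 47729 identifiers. Member genes and gene lists were chosen with earlier results of these data known. The test was made in edgeR 4.0.16 (R 4.3.3): filterByExpr, TMM, mouse and group as terms of a quasi-likelihood fit, and Benjamini-Hochberg adjustment over all genes tested, with a threshold of 0.05. Adjusted p and fold changes come from that fit. The SE belongs to the mean of the 5 differences between the eyes of a mouse in log2 CPM (prior count 2). p-values measure the spread between mice of 1 experiment.

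The pairing came from the animal number in the labels. It was checked on how far each library's log2 CPM lay from the mean of its group. These deviations correlated across genes with r of 0.25, 0.71, 0.29, 0.19 and 0.20 between the eyes of mice 1 to 5. Between different mice r had a median of -0.08 (-0.42 to 0.28). The values of mice 1, 4 and 5 lie within that range and that of mouse 3 just above it, so the check is clear for mouse 2 only. No libraries agreed within sampling noise.

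A coding gene was assigned to each noncoding gene as the one with the most overlap, otherwise one with a start within 1 kb on the opposite strand, otherwise the nearest. Named were called genes (up to 12 per direction), the 8 with the highest mean CPM, those within 5 kb of an NRF2 target gene, up to 4 per functional list, and their coding genes. Others are named in the text as picked after their values were seen, and the genes high in mouse 2 are of that kind. A count of 0 allows 3 counts, 0.110 to 0.244 CPM by library. Such limits and the intervals cover counting error only, because reads amplified by PCR can copy 1 molecule. The scripts were tested on simulated data. Alternatives were a fit with no block, DESeq2 1.42.0, its size factors in edgeR, other filters, the rod list as a covariate, leaving out each mouse, and other limits on the mean CPM. Adding the covariate or leaving out a mouse also lowers the degrees of freedom, so a call lost there is not by itself a dependence on rods or on that mouse. RefSeq start windows (GRCm38.p6) were matched by symbol. No values of other samples were used (0 columns).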

Additional observations from a re-analysis of the deposited data

Results flagged for a closer look

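Over the 60 groups of 5 eyes examined, a single eye stood apart from the others of its group in 3, and chance alone gives about 3. On the log2 CPM scale, Snhg6, a host of small nucleolar RNAs, was lowest in the control eye of mouse 5 at 1.24, with the others at 1.49 to 1.59, and lowest among the Nrf2 eyes in mouse 4 at 1.34, with the others at 1.88 to 1.94. Vax2os was highest among the Nrf2 eyes in mouse 2 at 4.98, with the others at 0.06 to 1.25. The 2 eyes of mouse 2 also had the highest rod marker sums, and their part in the level of Vax2os was not tested.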

How the results depend on the processing

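The number of noncoding genes called depended on the setting. From 13 it went to 7 with no replicate block (4 lower), of which 6 were shared with the 13, to 26 with DESeq2 (8 higher and 18 lower, 13.4% of those tested against 8.92% of all genes), of which 13 were shared, and to 2 with the rod list as a covariate (2 higher and 0 lower, 1.04% against 2.52% of all genes). Leaving out 1 mouse gave 3 to 8 called (2 to 4 higher and 0 to 5 lower). There were 3 each without mouse 2 (1.57% against 3.58% of all genes) and without mouse 5 (1.55% against 4.15%). There were 5 without mouse 4 (2.58% against 3.66% of all genes) and 8 each without mouse 1 and without mouse 3 (4.12% in each, against 5.27% and 4.32%). A limit of 1 CPM in place of 3 gave 24 of 490 tested (13 higher, 4.9% in all), and a limit of 10 CPM gave 3 of 61 (1 higher and 2 lower, 4.92%), against 6.33% of all genes. Over all genes the count went from 1036 to 1803 with DESeq2, to 412 with the rod list as a covariate and to 584 to 857 with a mouse left out. Other size factors and a filter on the mean count left 13, and no filter gave 17. The median log2FC of the noncoding genes was negative in each fit but shrank from -0.17 to -0.085 without mouse 4 and to -0.067 with the rod list as a covariate, and rho for exon overlap was 0.41 to 0.49 with a mouse left out. Of the 17 named genes that were tested and not called, the log2FC of 6 turned sign with a mouse left out, with ranges of -1.13 to 0.021 for A930003A15Rik (without mouse 4 the highest), -0.026 to 0.18 for Malat1 (without mouse 1 the lowest), -0.39 to 0.43 for Mir124-2hg, -0.13 to 0.38 for Neat1 (without mouse 1 the lowest), -0.32 to 0.036 for Snhg20 and -0.81 to 0.10 for Vax2os (both without mouse 4 the highest). With the rod list as a covariate A930003A15Rik was at 0.64, Mir124-2hg at 0.59, Snhg18 at -0.0061, Snhg20 at 0.049 and Vax2os at 0.37. The causes were not tested. With the replicate block left out, Carlr, Gm14133, Gm13111, Gm38910, Gm16364, 2610020C07Rik and AW112010 lost their calls. Across the other alternatives the named genes lost a call 52 times, and over all alternatives 259 values of named genes kept their direction and side of the threshold. The depth limits genes near 3 CPM, for which a library holds few counts, and those with a control mean under 0.1 CPM have no stable fold change.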
